A study of Homo sapiens with 6 samples.

Results

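H69M and H69, both labelled as small cell lung cancer cell lines, were compared for 10 genes: 8 genes of the machinery that makes and loads peptides for MHC class I (PSMB9, PSMB10, TAP1, TAPBPL, ERAP1, ERAP2, B2M and NLRC5) and the genes of the PD-1 ligands, CD274 and PDCD1LG2. The genes were taken from a fixed list by platform symbol, and all 10 were measured, among 18404 genes in all. The list was chosen with earlier results of these data known, so counts and medians over the 10 genes only describe them. Each had 1 probe set with a single symbol. Total RNA of each line was hybridised to 3 Affymetrix whole-transcript arrays, and the values are RMA expression on the log2 scale, so a difference of 1 is a 2-fold difference. No treatment is given for either line, and neither the origin of H69M nor separate cultures behind the 3 arrays of a line are stated, so the tests measure the spread between these arrays.

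MHC class I molecules show fragments of a cell's own proteins to CD8 T cells. The proteasome cuts the proteins, TAP carries the peptides into the endoplasmic reticulum, ERAP aminopeptidases trim them, and tapasin and related proteins load them onto a heavy chain paired with beta-2 microglobulin. Interferon gamma raises many of these genes through factors such as IRF1 and NLRC5, and it also raises PD-L1, which binds PD-1 on T cells and restrains them. Small cell lung cancer is known for low class I expression.

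At a limma adjusted p threshold of 0.05, H69M had higher levels of 8 of the 10 genes and a lower level of 1. By the same rule 21% of all genes were higher and 23.2% lower. PDCD1LG2, TAP1, CD274, ERAP2, PSMB9 and ERAP1 were at least 2-fold higher, a mark that 5.56% of all genes passed. ERAP1 was just under it with centred arrays (0.98 on the log2 scale) and without H69M replicate 3 (0.98). TAPBPL fell by a small amount, and PSMB10 did not pass. H69M and H69 arrays were fully separate for 9 of the 10 genes, 8 with H69M above and 1 with H69M below, where 25.8% and 30% of all genes did the same. The median log2 fold change was 1.63 for the 10 genes and -0.041 for all genes.

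The median probe set of an array was at 6.43 to 6.48 in H69M and at 6.47 to 6.48 in H69. With each array centred on its median gene, the median fold change of all genes was -0.13 and the share of calls that were higher was 31.3%, in place of 47.5%, while the 10 genes kept 8 higher and 1 lower.

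**Figure D1:**
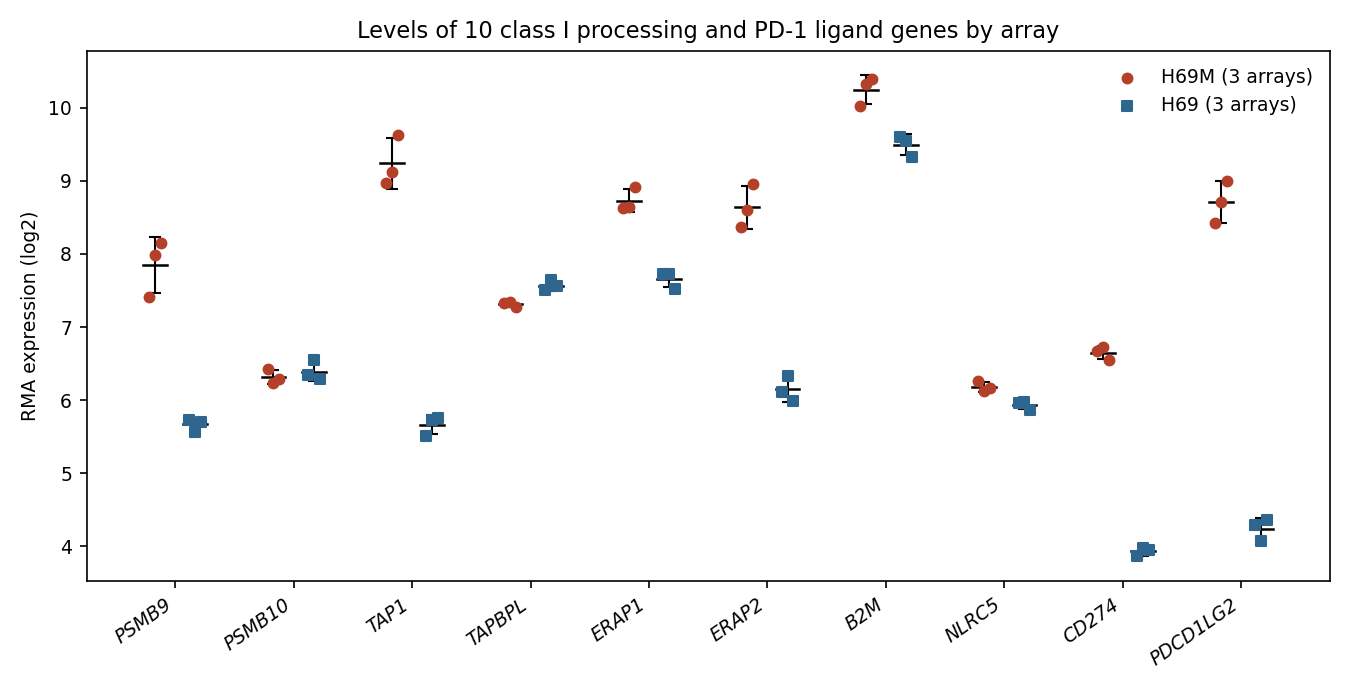
RMA expression (log2, vertical axis) of the 10 genes in each array, with H69M as red circles and H69 as blue squares, and the mean and SD of 3 arrays in black. The H69M arrays lie above every H69 array for 8 genes, the order is turned for TAPBPL, and the groups overlap for PSMB10.

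Upstream sequences are shown for the genes that held a core of the motif that interferon regulatory factors (IRFs) bind, and for PSMB9, the neighbour of TAP1. They were chosen by that motif and not by their change. For ERAP2 and PSMB10 only the last 30 bases are shown. ERAP1 and TAPBPL, which held no core, are not printed. Sequences come from RefSeq (GRCh38.p14), run 5′ to 3′ on the gene's strand and end 1 base before an annotated start. Capitals mark matches, on either strand, to the IRF element core GAAANNGAA, to the STAT site GAS, TTCNNNGAA, or to the NF-kB motif. PDCD1LG2 and NLRC5 are named only.
TAP1, chr6:32853705-32853954, minus strand: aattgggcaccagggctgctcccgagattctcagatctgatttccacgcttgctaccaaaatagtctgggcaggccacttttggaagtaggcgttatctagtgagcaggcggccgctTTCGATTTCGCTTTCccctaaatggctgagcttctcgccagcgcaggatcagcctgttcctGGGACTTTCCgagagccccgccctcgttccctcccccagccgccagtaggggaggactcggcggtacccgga
PSMB9, chr6:32853942-32854191, plus strand: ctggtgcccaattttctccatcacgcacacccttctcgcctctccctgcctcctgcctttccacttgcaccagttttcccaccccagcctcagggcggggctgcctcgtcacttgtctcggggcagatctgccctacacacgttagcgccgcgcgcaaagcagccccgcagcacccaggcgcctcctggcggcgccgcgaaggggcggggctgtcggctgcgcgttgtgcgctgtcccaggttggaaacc
CD274, chr9:5450292-5450541, plus strand: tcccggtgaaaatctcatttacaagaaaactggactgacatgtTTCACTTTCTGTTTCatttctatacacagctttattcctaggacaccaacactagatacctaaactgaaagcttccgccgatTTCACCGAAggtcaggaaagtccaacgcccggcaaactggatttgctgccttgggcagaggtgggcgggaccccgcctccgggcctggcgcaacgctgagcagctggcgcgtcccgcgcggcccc
B2M, chr15:44711267-44711516, plus strand: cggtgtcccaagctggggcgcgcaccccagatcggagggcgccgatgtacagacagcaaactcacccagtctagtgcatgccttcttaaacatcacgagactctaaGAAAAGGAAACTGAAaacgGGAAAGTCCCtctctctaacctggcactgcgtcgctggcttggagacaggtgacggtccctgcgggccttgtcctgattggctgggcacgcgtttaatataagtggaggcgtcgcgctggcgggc
ERAP2 at its second start, chr5:96876470-96876499, plus strand: GAAAGTGAAagcaaaagtaaattccccttc
PSMB10, chr16:67936851-67936880, minus strand: ggtaaaggcGAAAGCGAAagcaggaagtac

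TAP1 and PSMB9 are divergent neighbours whose starts lie 488 bases apart, and their windows together hold the whole stretch between them. TAP1 held a pair of IRF element cores that share 3 bases, 119 to 133 bases before its start, and an NF-kB match 63 to 72 bases before it. The same cores lie 355 to 369 bases before the PSMB9 start, outside the 250 bases searched for that gene. CD274 held a pair of cores 193 to 207 bases before its start and a GAS match 117 to 125 bases before it. In B2M the pair of cores lay 130 to 144 bases before the start, with an NF-kB match next to it at 116 to 125 bases.

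Single cores stood close to the second annotated start of ERAP2 (22 to 30 bases) and to the start of PSMB10 (13 to 21 bases). The 8 genes had 12 windows, 1 for each annotated start, and 5 of the 12 held the core, as did 6.88% of the 35116 windows of the RefSeq table. Of the 5 genes concerned, TAP1, CD274, B2M and ERAP2 were higher in H69M and PSMB10 did not pass. PSMB9 and ERAP1, also higher in H69M, and TAPBPL, which was lower, had no core in these windows. GAS was found in 2 of the 12 windows (CD274 and the second start of TAP1) and in 6.57% of all windows, and the NF-kB motif in 4 of the 12 (TAP1, B2M, ERAP1 and TAPBPL) and in 9.96% of all windows. The CRE core TGACG, which CREB and ATF factors bind, was found in 2 of the 12 (B2M and PSMB9) and in 21.2% of all windows, and the CCAAT box in 4 of the 12 (B2M, TAP1, PSMB9 and ERAP1) and in 32%. TAP1 and PSMB9 share 1 CCAAT box, in the 13 bases that both windows hold. These matches describe the letters and show no binding.

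**Figure D2:**
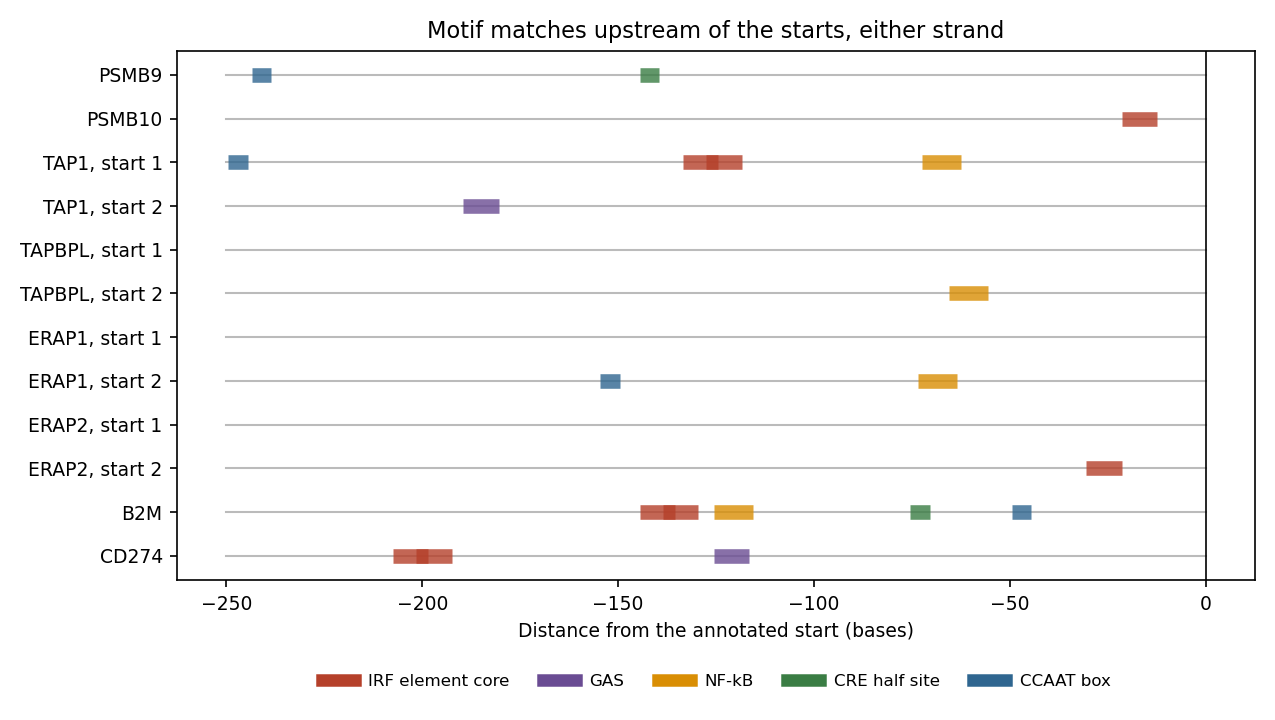
Matches to 5 motifs on either strand in the 250 bases before each annotated start of 8 genes (horizontal axis: distance from the start in bases; each line: 1 window). TAP1, B2M and CD274 each hold a pair of IRF element cores, while ERAP2 and PSMB10 hold 1 core within 30 bases of a start.

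Of the catalytic subunits that interferon induces in the proteasome, PSMB9 and PSMB8 rose and PSMB10 did not pass. PSMB9, the inducible subunit that takes the place of PSMB6, stood at 7.41, 7.98 and 8.15 in the H69M arrays, against 5.73, 5.57 and 5.70 in the H69 arrays (log2). All H69M arrays were above all H69 arrays, with H69M replicate 1 the lowest of its line. The log2 fold change was 2.18 ± 0.17 (SE), or 4.54-fold (limma adjusted p = 3.03e-05).

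PSMB10, which takes the place of PSMB7, had 6.42, 6.24 and 6.29 in H69M arrays, against 6.34, 6.54 and 6.29 in H69 arrays. The groups overlapped, and the fold change of -0.076 did not pass (limma adjusted p = 0.511, 95% interval -0.27 to 0.12). PSMB8, the third inducible subunit, is outside the 10 genes. It rose from a dim level, with means of 5.65 in H69M and 4.39 in H69 and a fold change of 1.26 ± 0.15 (limma adjusted p = 0.000309).

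Of the constitutive counterparts, PSMB6 rose by 0.39 ± 0.055 (log2, SE; limma adjusted p = 0.000691). PSMB5 (0.13) and PSMB7 (0.083) did not pass. The change of PSMB9 exceeded that of PSMB6 by 1.79, and that of PSMB8 exceeded that of PSMB5 by 1.13, each with an exact two-sided permutation p = 0.1, the smallest that 3 arrays against 3 allow. The change of PSMB10 minus that of PSMB7 was -0.16 (exact permutation p = 0.2). Adjusted over the 5 pairs of genes compared in this way, the exact p-values were 0.125, or 0.2 for PSMB10 and PSMB7, so none passed. PSME1 and PSME2, which form the proteasome activator PA28, rose by 0.94 ± 0.081 and 0.45 ± 0.081.

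TAP1 had the second largest change of the 10 genes. This subunit of the peptide transporter stood at 8.97, 9.13 and 9.63 in H69M arrays, against 5.51, 5.73 and 5.75 in H69 arrays. The lowest H69M array was far above the highest H69 array, and H69M replicate 3 was the highest. The log2 fold change was 3.58 ± 0.16 (SE), or 11.9-fold with a 95% interval of 9.18 to 15.5 (limma adjusted p = 1.71e-06). TAP1 was brighter than 82.7% of genes in H69M and than 27.4% in H69, and its rise ranked 120 among 18404 genes.

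TAP2, the other subunit of the transporter, rose by 2.13 ± 0.13 (limma adjusted p = 9e-06) on the probe set with the highest mean. Its 3 probe sets disagreed, with differences of 2.13, 4.18 and 0.54, the last from a very dim probe set (means of 2.52 in H69M and 1.98 in H69), on which the call was lost.

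TAPBPL went the other way. It encodes TAPBPR, a tapasin relative that edits the peptides class I molecules hold. The H69M arrays had 7.32, 7.34 and 7.28, against 7.50, 7.64 and 7.56 in H69 arrays. No arrays overlapped, but the fall was small, with a log2 fold change of -0.25 ± 0.061 (SE; limma adjusted p = 0.0101), or 1.19-fold lower. TAPBP, tapasin itself, rose by 0.63 ± 0.083 (limma adjusted p = 0.000499) on its brightest probe set, while its other probe sets gave 0.0076 and 0.079, and the call was lost with the dimmest probe set or the mean of all 3.

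Both trimming enzymes of the endoplasmic reticulum rose. ERAP2 stood at 8.36, 8.61 and 8.95 in H69M arrays, against 6.12, 6.33 and 5.995 in H69 arrays, a fold change of 2.49 ± 0.15 (log2, SE; 5.63-fold; limma adjusted p = 7.22e-06). ERAP1 stood at 8.63, 8.64 and 8.91 in H69M arrays, against 7.72, 7.72 and 7.53 in H69 arrays. Its fold change was 1.07 ± 0.096 (2.10-fold; limma adjusted p = 6.04e-05). For both genes every H69M array was above every H69 array. The change of ERAP1 minus that of ERAP2 was -1.42 (exact permutation p = 0.1, the smallest possible, and 0.125 adjusted).

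B2M, the light chain that every class I heavy chain needs, was bright in both lines and rose further. It stood at 10.02, 10.33 and 10.40 in H69M arrays, against 9.60, 9.55 and 9.33 in H69 arrays. The groups did not overlap, with H69M replicate 1 nearest to H69. The fold change was 0.75 ± 0.12 (log2, SE), or 1.69-fold (limma adjusted p = 0.00107). B2M was brighter than 92.8% of genes in H69M and than 86.1% in H69. Of the class I-like chains, MR1, HFE and CD1D were measured and 0 of these 3 passed (median -0.12), though MR1 and HFE were called lower with centred arrays.

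NLRC5, the transactivator of class I genes, changed little. The H69M arrays had 6.26, 6.12 and 6.16, against 5.97, 5.98 and 5.86 in the H69 arrays. The groups were close but did not overlap, with a fold change of 0.25 ± 0.065 (log2, SE; limma adjusted p = 0.0164). The change was 0.16 with centred arrays (limma adjusted p = 0.0458), and the call was lost without H69 replicate 3 (0.21, limma adjusted p = 0.0553).

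**Figure D3:**
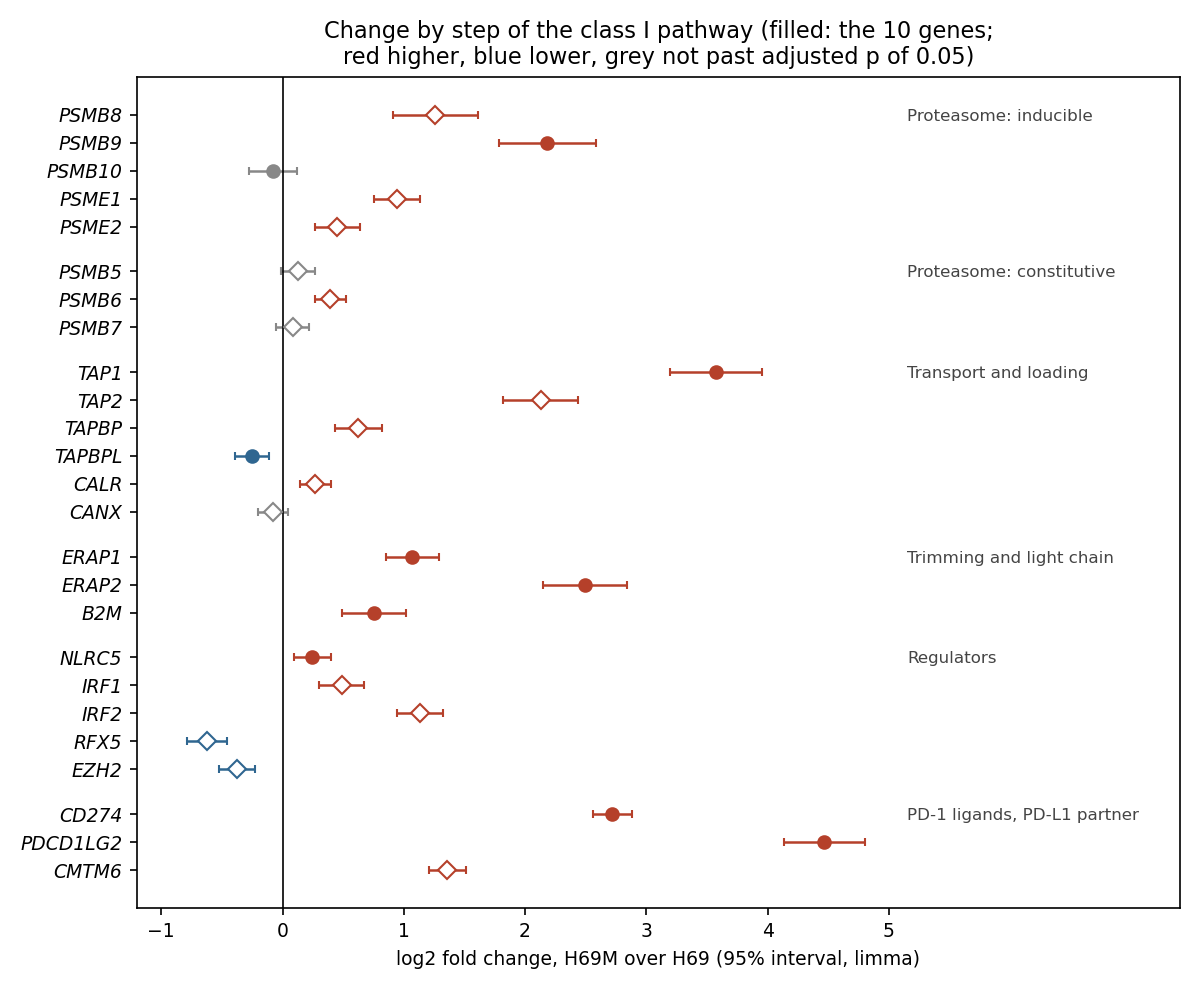
Log2 fold change of H69M over H69 with the 95% interval from limma (horizontal axis) for the 10 genes (filled circles) and for related genes (open diamonds), grouped by step of the class I pathway. PDCD1LG2 (4.47) and TAP1 (3.58) lie farthest to the right, PSMB10 spans 0, and TAPBPL lies below it.

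The genes of both PD-1 ligands rose from near the bottom of the scale. CD274, which encodes PD-L1, stood at 6.67, 6.73 and 6.56 in H69M arrays, against 3.86, 3.98 and 3.95 in H69 arrays. Both lines were tight and far apart. The fold change was 2.72 ± 0.068 (log2, SE), or 6.59-fold with a 95% interval of 5.91 to 7.36 (limma adjusted p = 1.27e-07). CD274 was brighter than 41.4% of genes in H69M and than 7.23% in H69.

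PDCD1LG2, which encodes PD-L2, had the largest change of the 10 genes and ranked 55 among the rises of all genes. It stood at 8.42, 8.72 and 8.998 in H69M arrays, against 4.29, 4.08 and 4.36 in H69 arrays. The gap between the lines was many times the spread within either. The fold change was 4.47 ± 0.14 (log2, SE), or 22.1-fold with a 95% interval of 17.6 to 27.9 (limma adjusted p = 3.54e-07). PDCD1LG2 was brighter than 75.2% of genes in H69M and than 10.01% in H69. RMA values carry no detection call, and folds against such dim levels can be understated.

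The change of CD274 minus that of PDCD1LG2 was -1.75 (exact permutation p = 0.1, the smallest possible, and 0.125 adjusted). Both H69 levels were close to that of the leukocyte gene PTPRC in H69 (3.95), so each fold may be a lower bound and no order is read from this difference. CMTM6, which keeps PD-L1 at the cell surface, rose by 1.36 ± 0.065 (log2, SE; limma adjusted p = 2.23e-06). The related gene CMTM4 went the other way, with a fold change of -0.27 ± 0.066 (limma adjusted p = 0.0103).

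Several of the 10 genes are neighbours, and the genes beside them were read in RefSeq order. On chromosome 6, TAP2, PSMB8, TAP1 and PSMB9 follow each other and all rose, whereas the next measured genes, HLA-DMB (0.0079) and HLA-DMA (-0.053), did not pass. HLA-DMA was variable in H69 (SD 0.66) and was called higher on its dimmest probe set. On chromosome 9, CD274 and PDCD1LG2 adjoin. PLGRKT (0.36) on one side and RIC1 (0.49) on the other rose by far less, RLN1 (0.079) did not pass, and ERMP1, a metallopeptidase gene, fell by 0.77. The PLGRKT call was lost in 5 alternatives, among them both other scalings. On chromosome 5, ELL2 (1.04), a transcription elongation factor gene, and CAST (0.46), which encodes the calpain inhibitor, rose before ERAP1 and ERAP2. Beyond them RIOK2 (-0.38) and LIX1 (-0.27) fell, the LIX1 call being lost in 6 alternatives.

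Beside B2M on chromosome 15, no neighbour was called higher. SPG11 (-0.19) and TRIM69 (-0.28) fell, the SPG11 call being lost in 5 alternatives, and PATL2 and TERB2 did not pass. Beside NLRC5 on chromosome 16, CPNE2 rose (0.47) and HERPUD1, CETP and PSME3IP1 did not pass. Next to PSMB10, SLC12A4 fell (-0.31) and PSKH1, CTRL and DPEP3 did not pass. Next to TAPBPL on chromosome 12, LTBR fell (-0.32) and CD27, VAMP1 and NCAPD2 did not pass. Of the 28 neighbours outside the 10 genes, 7 were higher in H69M, 7 were lower and 14 did not pass. These shares are near the 21% higher and 23.2% lower of all genes. TAP2 and PSMB8, themselves class I pathway genes, are among the 7 higher.

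**Figure D4:**
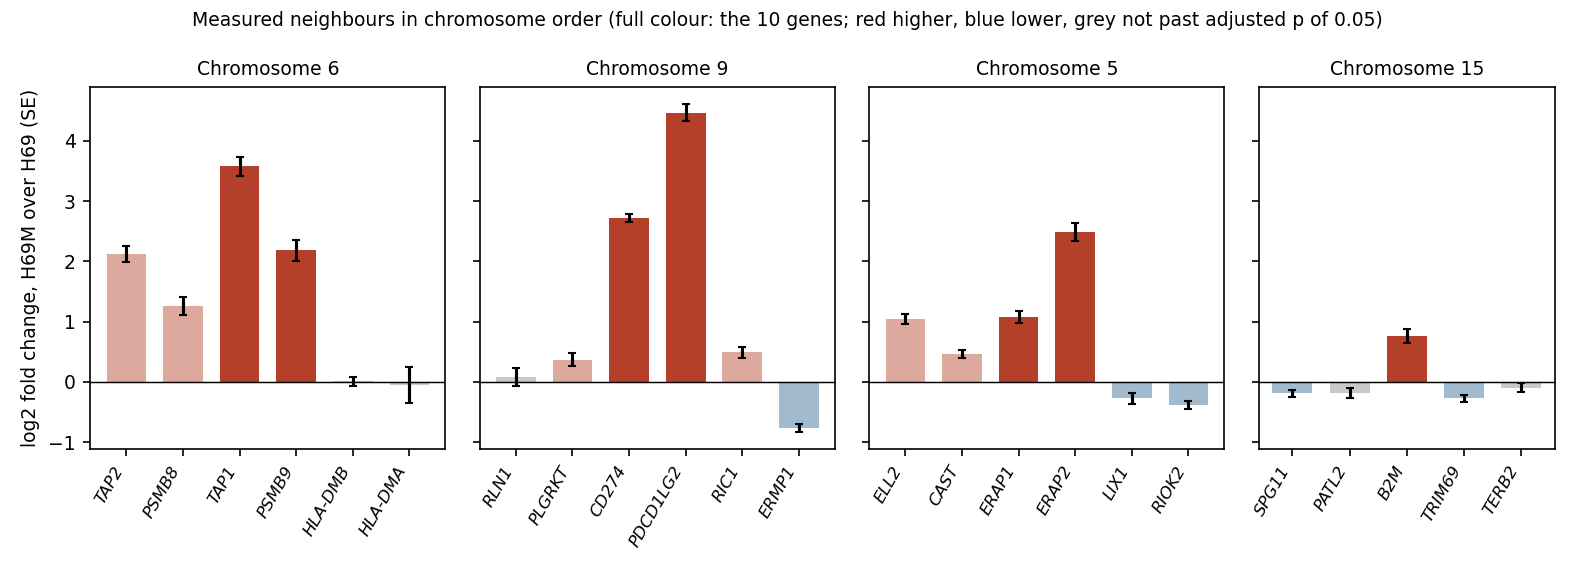
Log2 fold change of H69M over H69 with the SE (vertical axis) for members of the 10 genes (full colour) and their nearest measured neighbours (pale) in chromosome order. The rise covers 4 adjoining genes on chromosome 6, is much larger in CD274 and PDCD1LG2 than in PLGRKT (0.36) or RIC1 (0.49) on chromosome 9, and on chromosome 15 B2M alone was called higher.

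Of 14 other loading and folding genes measured, 7 were higher, 1 was lower and 6 did not pass, with a median log2 fold change of 0.19 (5 higher and 2 lower with centred arrays). Beyond TAP2 and TAPBP, the largest changes were in SAR1A (0.54 ± 0.057, SE), a GTPase of transport vesicles, and MOGS (0.45 ± 0.059), a glucosidase of glycoprotein folding. Of the class I chaperones, calreticulin (CALR) rose by 0.27 and calnexin (CANX, -0.078) did not pass, though CANX was called lower with centred arrays and with quantile normalization. The difference between them was not tested. Of 21 other proteasome and peptidase genes, 8 were higher and 3 were lower (median 0.13; 5 and 4 with centred arrays). PSMB8 and PSME1 led the rises, and TPP2, a cytosolic peptidase, fell by 0.45 ± 0.061.

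Of 17 factors that act at class I promoters, 5 were higher, 3 were lower and 9 did not pass. These shares of 29.4% and 17.6% are near the 21% and 23.2% of all genes, and the median of 0.051 became -0.039 with centred arrays. NFKB1, the p50 subunit of NF-kB, rose by 2.01 ± 0.12 (log2, SE; limma adjusted p = 8.30e-06), and the interferon regulatory factors IRF2 and IRF1 rose by 1.13 ± 0.081 and 0.49 ± 0.080. RFX5, a subunit of the complex that binds class I and class II promoters, fell by 0.63 ± 0.071. EED and EZH2, subunits of the Polycomb complex known to silence class I genes in small cell lung cancer, fell by 0.50 ± 0.060 and 0.37 ± 0.065, while SUZ12, another core subunit, had 0.099 and did not pass.

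Genes of interferon signalling rose in part, and the interferon genes themselves were dim. Of 19 measured, 8 were higher and 1 was lower (median 0.14; 7 and 3 with centred arrays). The interferon gamma receptor genes IFNGR2 (0.82 ± 0.059) and IFNGR1 (0.38 ± 0.068) rose, as did JAK1 (0.67 ± 0.057), the interferon alpha receptor gene IFNAR2 (0.75 ± 0.084) and the feedback inhibitor SOCS1 (0.91 ± 0.11). JAK2 had 0.22 ± 0.12 and did not pass, but did without H69M replicate 1. IFNG stood at 3.08 in H69M and 3.16 in H69, and IFNB1 at 3.01 in H69M and 3.32 in H69, with no call for either.

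Of 11 class II genes measured, 1 was higher and 2 were lower (median -0.048). In each line 6 of the 11 lay below the 25th percentile of gene levels, and HLA-DRA, HLA-DRB1 and CD74 are not analysed here. Their activator CIITA stood at 5.91 in H69M and 5.96 in H69 and did not pass. IFI30, a lysosomal reductase of antigen processing, fell to 8.72 in H69M, against 10.88 in H69, a fold change of -2.15 ± 0.15 (SE; limma adjusted p = 1.50e-05). HLA-DPA1 was lower (-0.52) and HLA-DOB higher (0.35), both calls being lost on another probe set.

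Among 29 other immune ligands and related immune genes, not all of them surface proteins, 14 were higher and 2 were lower (median 0.32). The largest rises were in CD55, an inhibitor of complement, (2.94 ± 0.12, SE), IDO1, the enzyme that degrades tryptophan, (2.92 ± 0.19), BTN3A1, a ligand for gamma delta T cells, (1.71 ± 0.13) and CD276, which encodes B7-H3, (1.66 ± 0.19). The costimulatory genes CD80 (-0.044) and CD86 (0.087) did not pass and were dim in both lines. Of 12 ligands of NK cell receptors, 1 was higher and 5 were lower (median -0.096). NCR3LG1, which encodes B7-H6, fell by 1.32 ± 0.091, MICB by 1.15 ± 0.16 and ULBP1 by 0.62 ± 0.067, while ULBP3 rose by 1.30 ± 0.16. MICA fell by 0.31 on its brightest probe set, a call that changed with its dimmest probe set or the mean of its probe sets. Its fold change ranged from -0.40 to 0.33 over the alternatives, so its direction was not kept.

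**Figure D5:**
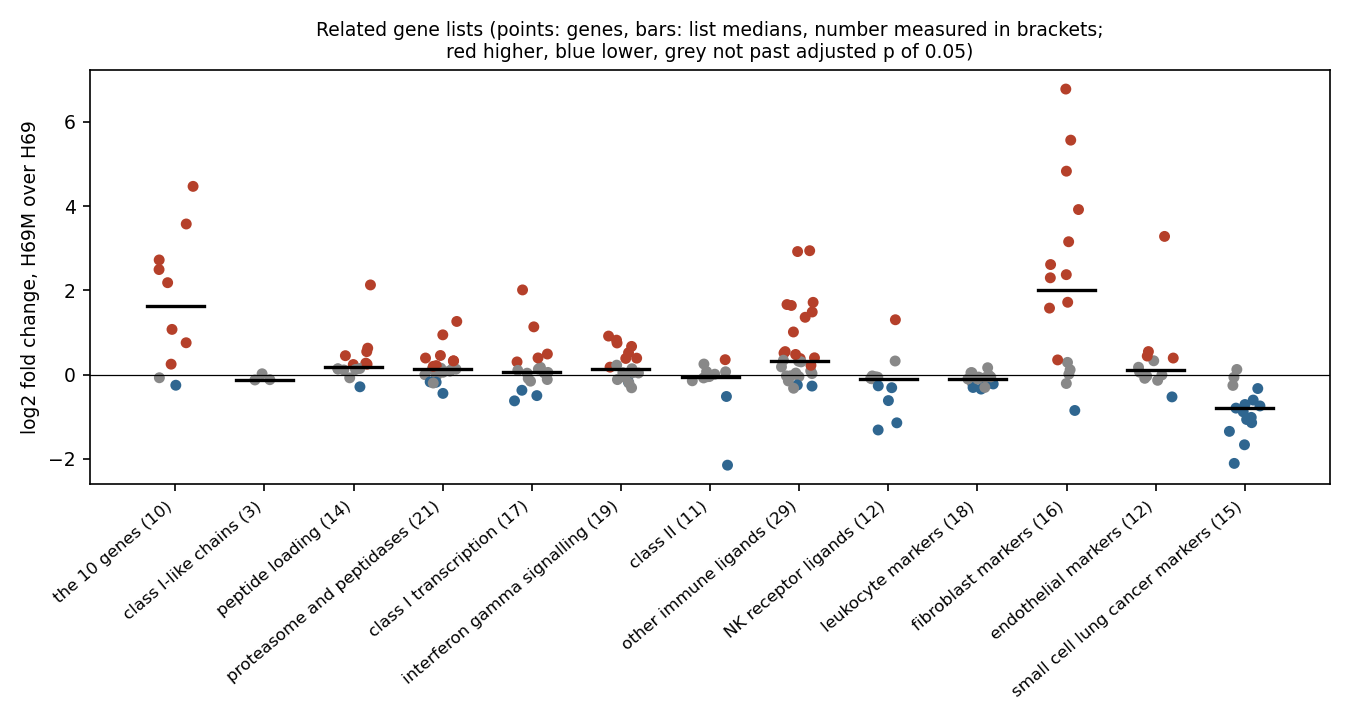
Log2 fold change of H69M over H69 (vertical axis) for the measured genes of 13 lists, with the list medians as bars and colours by limma call. The 10 genes have a median of 1.63, against 0.32 for other immune ligands and -0.048 for class II genes.

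Markers of other cell types were read beside these results, since blood cells and fibroblasts also carry class I genes and PD-1 ligands. Of 18 measured leukocyte markers, 0 were higher and 5 were lower in H69M. The lower share of 27.8% is near the 23.2% of all genes, while 21% of all genes were higher. The CD3E, CD79A and CD8A calls were lost in 5, 6 and 8 alternatives. The summed log2 level of the 18 markers was 84.7 to 85.7 in H69M arrays and 86.7 to 88.0 in H69 arrays. In H69M, 12 of the 18 lay below the 25th percentile of gene levels (5.58). The pan-leukocyte gene PTPRC stood at 3.60 in H69M and 3.95 in H69. Of 16 fibroblast markers, 11 were higher and 1 was lower, with LUM (6.78), PRRX1 (5.57), COL1A1 (4.83) and FAP (3.92) in front. FBLN1 fell by 0.85, and 4 markers did not pass. Among those 4, POSTN was bright in both lines (11.58 in H69M and 11.47 in H69), though it was called without H69M replicate 3. The summed log2 level of the 16 markers was 129 to 134 in H69M arrays and 96.4 to 96.7 in H69 arrays. The part of these markers in the changes above was not tested.

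Of 12 endothelial markers, 4 were higher (33.3%, against 21% of all genes), TEK (3.28) by most. TEK varied between H69M arrays (8.44, 8.58 and 6.64, SD 1.09), and the EMCN call was lost in 2 alternatives. CLDN5 was lower (-0.53), as the only 1 of the 12, while PECAM1 and CDH5 did not pass. The summed log2 level of the 12 markers was 65.5 to 68.7 in H69M arrays and 62.5 to 63.5 in H69 arrays. Of 15 neuroendocrine markers of small cell lung cancer, 0 were higher and 12 were lower, with summed log2 levels of 134 to 139 in H69M arrays and 149 in each H69 array. They were still expressed in H69M, for example NCAM1 at 9.69 and INSM1 at 10.10. In bulk RNA, fewer cells of a type and less RNA per cell cannot be told apart.

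The genes whose profiles over the 6 arrays were nearest to those of 3 of the 10 genes were found by the root mean square difference after subtraction of each gene's H69 mean. For TAP1 these were ACTC1 (0.13), IGF2BP2 (0.14) and CNN1 (0.15), for CD274 they were BGN (0.061), LRP1 (0.078) and LASP1 (0.086), and for B2M they were FLOT1 (0.061), RHOG (0.067) and CYLD (0.068), all in log2 units. The points share the same 6 arrays and 2 lines, so a small distance mainly means a similar fold change. CD274, for example, had 2.72 and BGN had 2.70. Shared control of these genes was not tested.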

How the data were processed

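Total RNA of H69M and H69 was measured on Affymetrix arrays, 3 per line. The authors deposited log2 expression values. RMA and limma are the tools in the submitters' processing notes. For versions and genome build, nothing is given in the sources used here.

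Of 32321 probe sets, 19158 had 1 gene symbol in the platform annotation, 1388 had several and 11775 were not listed. The 18404 genes with a single-symbol probe set were used, each by the probe set with the highest mean. limma 3.58.1 in R 4.3.3 (lmFit, eBayes, trend off, two-sided) was fitted across all these genes with group as the only term, and p-values were adjusted over all of them by the Benjamini-Hochberg method (threshold 0.05). Pairs of genes were compared by an exact permutation test. The code was tested on simulated data. The median SE of a log2 fold change was 0.075, and precision is limited by how few arrays there are. The 10 genes, the lists and the pairs were chosen with earlier results of these data known. Genes named were the 10 genes, up to 4 called genes with the largest change per list, fixed pathway genes, the 2 nearest measured genes on each side and, for TAP1, CD274 and B2M, the 3 nearest profiles. CALR, CANX, SUZ12, IFNG, IFNB1, CMTM4, CD8A, FBLN1, POSTN, PECAM1, CDH5 and INSM1 fall outside that rule and were named after their values were seen. Alternatives were a replicate block, 2 other scalings, 2 filters on dim genes, other variance models, array weights, other probe sets, and leaving out every array once. Python 3.11.15 was used for tables and figures.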

Additional observations from a re-analysis of the deposited data

Results flagged for a closer look

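The platform annotation gives 4 probe sets to 2 class I heavy chain genes at a time, so they name no single gene and were not used in the comparison. In 3 of them every H69M array was above every H69 array. Probe set 8179731 averaged 10.59 in H69M and 8.87 in H69 (log2 difference 1.72), probe set 8178498 averaged 9.37 in H69M and 8.62 in H69 (0.75), and probe set 8179019 averaged 5.56 in H69M and 4.72 in H69 (0.83). The arrays of the lines overlapped for the fourth, probe set 8117760, which averaged 3.45 in H69M and 2.80 in H69. These differences were not tested.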

How the results depend on the processing

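The 10 genes kept their direction with centred arrays, with quantile normalization, with array weights and with each array left out. The replicate block, the filters and the other variance models could not alter a fold change. The other probe set choices could not either, since each of the 10 genes had 1 probe set. Among these genes, NLRC5 without H69 replicate 3 was the only change of a call in any alternative that tested the gene. The filters on dim genes left some of the 10 untested. The 25th percentile filter left out CD274, so 9 were tested and 7 were higher. The filter at the median level left out CD274, PDCD1LG2, PSMB9, PSMB10 and NLRC5. The count of higher genes among the 10 was 4 when only genes above the median level were tested, because 5 of the 10 were then tested, and 7 to 8 with an array left out. Over all genes, the count lower in H69M was 6827 with arrays centred on their medians, in place of 4274, and 3521 to 4450 with an array left out, while the count higher was 3318 to 3628 with an array left out. The replicate numbers do not pair the arrays (correlations of same-numbered deviations 0.021, 0.0072 and 0.0099). With the replicate block 8 of the 10 genes were higher and 1 lower, and over all genes 3617 and 4021. The 5 differences between pairs of genes kept their sign with quantile normalization and with each array left out. Centring the arrays, the other probe set choices and the replicate block could not change these differences. The differences were not recomputed under the filters, variance models and array weights.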
